A study of Homo sapiens with 4 samples.

Results

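The genes described here encode the enzymes, the corepressor and the readers of 2 repressive histone marks, methylation of lysine 9 of histone H3 (H3K9) and of lysine 20 of histone H4 (H4K20). They were taken as a named set of 10 genes by symbol, after Entrez IDs were paired with symbols, from 39259 genes in the table: SUV39H1, SUV39H2, SETDB1, EHMT1, EHMT2, TRIM28, CBX3, CBX5, KMT5B and KMT5C. All 10 were present and all 10 were among the 11716 genes tested. The data are RNA-seq libraries of MDA-MB-231 cells, an established human line of triple-negative breast cancer, 2 labelled as a knockout (KO) of mdig and 2 labelled as wild type (WT). Mdig, also called mina53, is the product of RIOX2, an oxygenase of the JmjC family that has been studied as a regulator of H3K9 methylation, and the design asks which transcripts differ between KO and WT cells. Both groups were grown in the same medium with serum and antibiotics. The labels name neither the method of the knockout nor whether the KO cells are 1 clone, and nothing in them says that the replicates were separate cultures, so every p-value below reflects the spread among these libraries alone, and that spread may be technical.

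In textbook accounts, SUV39H1 and SUV39H2 place the trimethyl mark on H3K9 in pericentric heterochromatin, and SETDB1 places it at silenced retroelements and genes, where TRIM28 (KAP1) brings it together with KRAB zinc finger proteins. EHMT1 (GLP) and EHMT2 (G9a) act as a heterodimer that mono- and dimethylates H3K9 in euchromatin. HP1 proteins, encoded by CBX1, CBX3 and CBX5, bind methylated H3K9 through a chromodomain, and they recruit among others KMT5B and KMT5C, which di- and trimethylate H4K20. Histone marks were not measured in these libraries, only transcript levels.

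The 4 libraries held 22503981 to 52163811 fragments assigned to genes, with WT replicate 2 the shallowest. The described genes were covered by 351 to 24186 fragments per library. Levels are given in FPKM, a fragment count scaled to the deposited gene length and to library depth. Levels of different genes can be compared only as far as that length fits the transcripts that were made. RIOX2, which the labels name as knocked out, measured 9.23 and 9.82 FPKM in the libraries labelled KO, against 8.60 and 8.24 FPKM in WT. Its transcript was not lower in those libraries: the log2 change was 0.16 (limma adjusted p = 0.0546), and it passed the threshold under 7 alternatives, with values of 0.12 to 0.20. The KO label could therefore not be checked from RNA levels, and directions below are between libraries as labelled. Of the markers of the line, VIM averaged 2000 FPKM in the libraries labelled KO and 2334 FPKM in WT, and CD44 101 and 89.0 FPKM. ESR1 and PGR had at most 1 fragment per library, CDH1 averaged 0.611 and 0.152 FPKM, EPCAM 2.64 and 2.01 FPKM, and ERBB2 13.8 and 13.0 FPKM, each with the libraries labelled KO before WT.

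Promoter sequence is shown for the SUV39H genes and for 2 HP1 genes, because these are the families in which transcripts changed and for which RefSeq (GRCh38.p14) gives a start at the deposited gene start; 9 of the 10 genes had an entry, and TRIM28 had none. Each window has 250 bases before the start and 50 after it, on the gene's own strand, and capitals mark letters of the motifs searched. The windows are chrX:48695304-48695603 (plus strand) for SUV39H1, chr10:14878616-14878915 (plus strand) for SUV39H2, chr7:26201193-26201492 (plus strand) for CBX3 and chr12:54280073-54280372 (minus strand) for CBX5.
SUV39H1: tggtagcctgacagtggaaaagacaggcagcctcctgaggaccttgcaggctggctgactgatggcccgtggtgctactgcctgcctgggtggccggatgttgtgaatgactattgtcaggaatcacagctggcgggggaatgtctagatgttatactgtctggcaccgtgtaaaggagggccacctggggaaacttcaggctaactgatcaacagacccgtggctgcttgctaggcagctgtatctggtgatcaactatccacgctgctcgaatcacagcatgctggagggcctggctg
SUV39H2: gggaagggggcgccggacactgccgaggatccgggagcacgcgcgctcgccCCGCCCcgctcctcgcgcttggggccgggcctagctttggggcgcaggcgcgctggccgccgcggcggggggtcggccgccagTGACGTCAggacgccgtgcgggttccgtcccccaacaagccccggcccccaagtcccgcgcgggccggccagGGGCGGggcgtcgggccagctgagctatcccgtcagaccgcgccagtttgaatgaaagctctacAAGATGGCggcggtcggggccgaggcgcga
CBX3: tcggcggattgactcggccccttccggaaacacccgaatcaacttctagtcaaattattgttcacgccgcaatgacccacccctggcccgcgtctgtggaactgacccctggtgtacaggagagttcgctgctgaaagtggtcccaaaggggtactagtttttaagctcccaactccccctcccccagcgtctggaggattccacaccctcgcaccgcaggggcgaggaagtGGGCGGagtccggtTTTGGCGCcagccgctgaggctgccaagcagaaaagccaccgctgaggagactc
CBX5: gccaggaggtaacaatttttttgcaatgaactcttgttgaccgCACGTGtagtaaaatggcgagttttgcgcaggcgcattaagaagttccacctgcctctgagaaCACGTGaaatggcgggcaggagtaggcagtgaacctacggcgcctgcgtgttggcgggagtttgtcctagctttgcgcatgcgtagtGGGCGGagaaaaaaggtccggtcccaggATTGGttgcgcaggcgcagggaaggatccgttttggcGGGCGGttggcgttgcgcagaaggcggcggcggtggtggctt
Motifs were searched on both strands, and no matches overlapped in these windows. For E2F the letters were TTTGGCGC, or TTTCCCGC, or TTTCGCGC, or TTTGCCGC. The cyclic-AMP response element was TGACGTCA and the YY1 core was AAGATGGC. The E-box was searched as CACGTG. For the GC box the search was for GGGCGG. The box named CCAAT was searched by those letters. SUV39H2, with 76.3% G and C, held TGACGTCA from position −116 relative to the start, AAGATGGC from position 21, and 2 GC boxes. The CBX3 window held TTTGGCGC from position −4 and 1 GC box from position −18. That of CBX5 held an E-box at positions −207 and −144, 1 CCAAT box on the other strand and 2 GC boxes. The SUV39H1 window, with 56.3% G and C, held none of these letters. For each gene only the window nearest the deposited gene start was searched, so any other start of the same gene is not covered. Among 27305 promoters of the same length, 1.98% held TGACGTCA, 3.03% the YY1 core, 3.33% the E2F letters, 7.43% an E-box, 35.7% a CCAAT box and 44.6% a GC box. A match is a run of letters and not a shown binding site.

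Transcripts of both SUV39H genes fell. SUV39H1 (Entrez ID 6839, chromosome X, 48695554 to 48709016, GRCh38) measured 8.03 and 7.79 FPKM in the libraries labelled KO, against 9.36 and 9.87 FPKM in WT. SUV39H2 (Entrez ID 79723, chromosome 10, 14878866 to 14904315) measured 7.79 and 8.14 FPKM in the libraries labelled KO, against 11.2 and 10.3 FPKM in WT. For both genes each library labelled KO lay below each WT library. In bulk RNA, fewer cells with a transcript and less of it per cell cannot be told apart. On the scale of log2(FPKM + 1), SUV39H1 fell by 0.25 (SE 0.058, limma adjusted p = 0.00794) and SUV39H2 fell by 0.39 (SE 0.062, adjusted p = 0.00146). In means, SUV39H1 was at 0.823 and SUV39H2 at 0.741 of the WT level. SUV39H1 did not pass the threshold without KO replicate 2 (−0.23, adjusted p = 0.0838).

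TRIM28 (Entrez ID 10155, chromosome 19, 58544064 to 58550722), the corepressor that carries SETDB1 to KRAB zinc finger targets, also fell and was the most abundant of the 10 transcripts in both groups. It measured 133 and 126 FPKM in the libraries labelled KO, against 154 and 159 FPKM in WT, and the groups did not overlap. Its log2 change was −0.27 (SE 0.053, limma adjusted p = 0.00389), which put the mean at 0.828 of the WT level. Without KO replicate 2 it was −0.23 and past the threshold no longer (adjusted p = 0.0666).

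CBX3, which encodes HP1 gamma (Entrez ID 11335, chromosome 7, 26201443 to 26213607), was the 1 gene of the set that rose. It measured 80.7 and 80.5 FPKM in the libraries labelled KO, against 67.8 and 71.6 FPKM in WT, with no overlap. The log2 change was 0.21 (SE 0.053, limma adjusted p = 0.0122), or 1.16 times the WT mean. The call was lost without KO replicate 1 (adjusted p = 0.0999) and without KO replicate 2 (adjusted p = 0.0981), while the change stayed at 0.21 in both fits. Processed pseudogenes of CBX3 exist and can share its reads, so its level is uncertain to that extent.

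**Figure D1:**
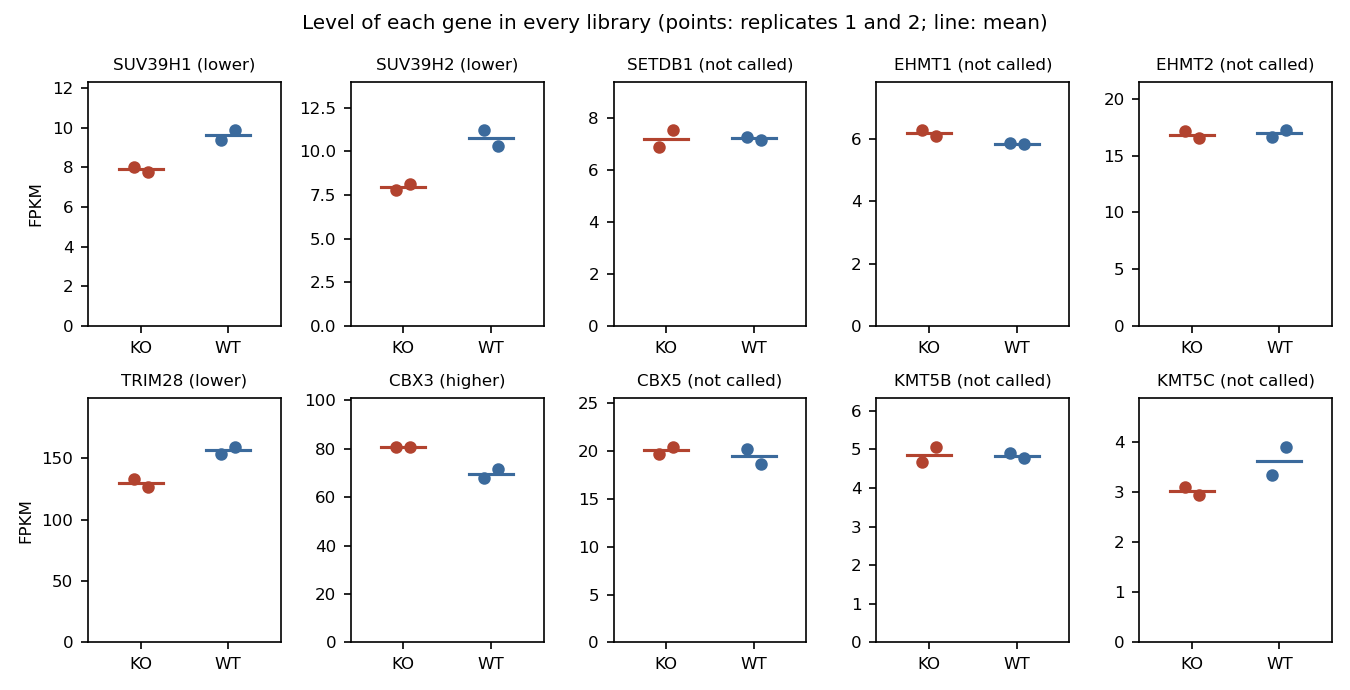
FPKM (vertical axis, from 0) of each of the 10 genes in every library, with the libraries labelled KO in red on the left and WT in blue on the right; points are the 2 replicates, lines their mean, and the title gives the test's call for KO against WT. SUV39H1, SUV39H2 and TRIM28 lie lower in both libraries labelled KO, CBX3 lies higher, and the points of SETDB1, EHMT2, CBX5 and KMT5B overlap between the groups.

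The other 6 genes did not pass the threshold, and their intervals bound the changes that these libraries allow. SETDB1, the enzyme that trimethylates H3K9 together with TRIM28 (Entrez ID 9869, chromosome 1, 150926263 to 150964737), measured 6.87 and 7.53 FPKM in the libraries labelled KO, against 7.29 and 7.17 FPKM in WT. Its log2 change was −0.0062, with a 95% interval of −0.15 to 0.14 (limma adjusted p = 0.943). EHMT2 (G9a; Entrez ID 10919, chromosome 6, 31879759 to 31897698) measured 17.1 and 16.6 FPKM in the libraries labelled KO, against 16.7 and 17.2 FPKM in WT, a change of −0.0072 with an interval of −0.13 to 0.12 (adjusted p = 0.923). For both genes the libraries of the groups overlapped, and the sign of the estimate turned positive under quantile normalization and under median-of-ratios scaling.

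EHMT1 (GLP), the partner of EHMT2 (Entrez ID 79813, chromosome 9, 137619001 to 137836127), measured 6.29 and 6.10 FPKM in the libraries labelled KO, against 5.86 and 5.86 FPKM in WT. The groups did not overlap, but the change of 0.068 (interval −0.063 to 0.20) missed the threshold (limma adjusted p = 0.348). CBX5, which encodes HP1 alpha (Entrez ID 23468, chromosome 12, 54230942 to 54280122), measured 19.7 and 20.4 FPKM in the libraries labelled KO, against 20.2 and 18.7 FPKM in WT (change 0.044, interval −0.093 to 0.18, adjusted p = 0.565). Among the H4K20 enzymes, KMT5B (Entrez ID 51111, chromosome 11, 68154863 to 68213899) measured 4.67 and 5.06 FPKM in the libraries labelled KO, against 4.90 and 4.78 FPKM in WT (change 0.0061, interval −0.14 to 0.15, adjusted p = 0.943). For CBX5 and KMT5B the groups overlapped.

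KMT5C, the paralog of KMT5B (Entrez ID 84787, chromosome 19, 55339876 to 55348121), measured 3.10 and 2.94 FPKM in the libraries labelled KO, against 3.33 and 3.90 FPKM in WT. Every library labelled KO lay below both WT libraries, with a change of −0.20 (interval −0.37 to −0.026) that narrowly missed the threshold (limma adjusted p = 0.0561). With voom on fragments it passed (−0.23, limma adjusted p = 0.0393). Without WT replicate 1 the change was −0.29, measured against WT replicate 2 alone. Without WT replicate 2, the library with the highest KMT5C level, the change was −0.11. KMT5C was the lowest of the 10 genes, with 351 to 614 fragments per library.

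Counted together, 1 of the 10 genes was higher and 3 were lower, 4 in all, where 49.9% of all 11716 tested genes passed the same threshold (21.6% higher and 28.4% lower). The share of the set that passed was thus no higher than that of all genes. Without KO replicate 2 the counts were 0 higher and 1 lower, where 30.1% of all tested genes were called. Without KO replicate 1 they were 0 and 3, where 32.5% of all tested genes were. Their median log2 change was −0.0067, against −0.041 for all tested genes. The libraries of the groups did not overlap for 6 of the 10 genes (2 higher and 4 lower), against 77.5% of all tested genes (32.9% higher and 44.6% lower). The largest change, that of SUV39H2, exceeded in size those of 81.3% of tested genes. That of TRIM28 exceeded those of 66.2%, and that of SUV39H1 those of 63.0%.

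The order of levels was the same in both groups: TRIM28, CBX3, CBX5, EHMT2, SUV39H2, SUV39H1, SETDB1, EHMT1, KMT5B and KMT5C, from high to low. This order depends on the deposited length of each gene. In the libraries labelled KO, SUV39H2 (mean 7.97 FPKM) and SUV39H1 (7.91 FPKM) overlapped and could not be ranked. In WT, SUV39H2 (10.8 FPKM) lay above SUV39H1 (9.61 FPKM) in both libraries. The other neighbours in the order did not overlap within either group.

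Within families, the summed level of the SUV39H pair was 15.8 and 15.9 FPKM in the libraries labelled KO, against 20.6 and 20.2 FPKM in WT, a change of −22.0% in the mean. SUV39H1 made up 50.7% and 48.9% of that sum in the libraries labelled KO, against 45.5% and 48.9% in WT, so the shares overlapped. The HP1 genes summed to 151 and 153 FPKM in the libraries labelled KO, against 138 and 141 FPKM in WT. CBX3 took 53.6% and 52.5% of the HP1 sum in the libraries labelled KO, against 49.0% and 50.6% in WT, without overlap. CBX1, which encodes HP1 beta, measured 50.1 and 52.5 FPKM in the libraries labelled KO, against 50.4 and 51.1 FPKM in WT (change 0.014, limma adjusted p = 0.844).

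EHMT2 supplied 73.2% and 73.1% of the EHMT sum in the libraries labelled KO, against 74.0% and 74.6% in WT. The deposited lengths were 12246 bp for EHMT1 and 4986 bp for EHMT2. In KO replicate 1 these genes had 3754 and 4167 fragments, so the share depends on those lengths. The EHMT sum itself was 23.4 and 22.7 FPKM in the libraries labelled KO, against 22.5 and 23.1 FPKM in WT, with overlap. KMT5B supplied 60.1% and 63.2% of the KMT5B and KMT5C sum in the libraries labelled KO, against 59.5% and 55.0% in WT. SETDB1 exceeded its paralog SETDB2 throughout, with 94.3% and 94.1% of their sum in the libraries labelled KO, against 94.2% and 94.4% in WT. An exact permutation test of 2 against 2 libraries cannot go below p = 0.333 (two-sided), so shares and sums are given as values only.

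**Figure D2:**
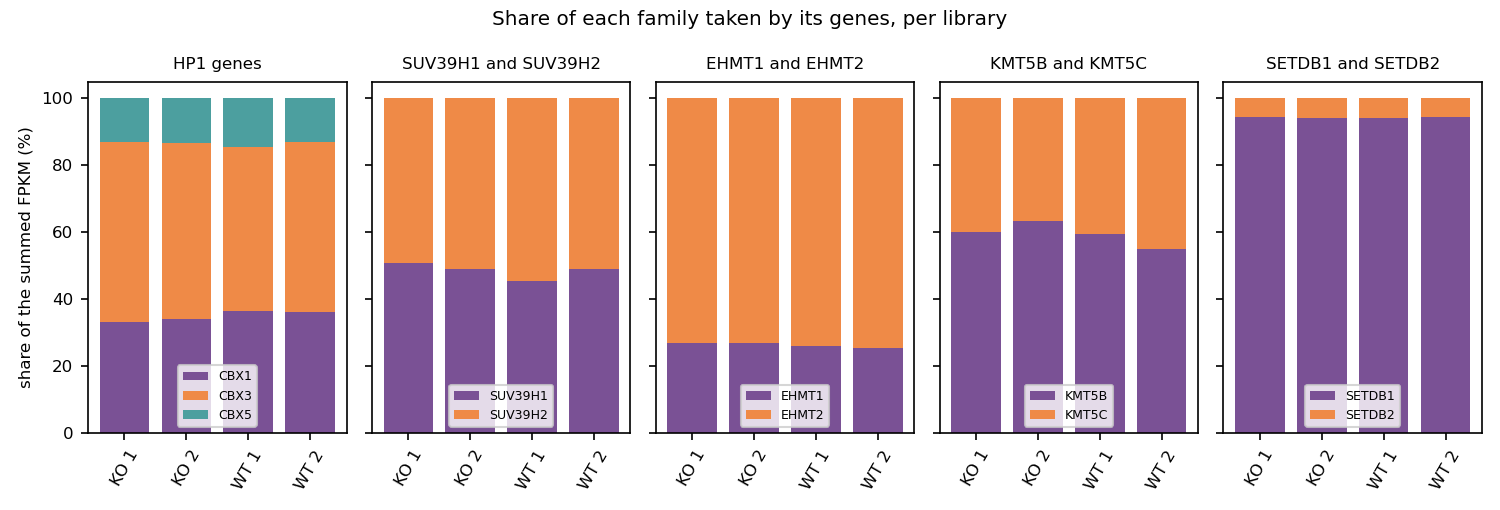
Share of the summed FPKM (vertical axis, percent) that each gene takes within its family, in KO replicates 1 and 2 and then WT replicates 1 and 2; each bar is 1 library. CBX3 takes 52.5% to 53.6% of the HP1 sum in the libraries labelled KO and 49.0% to 50.6% in WT, and the split of SETDB1 and SETDB2 stays within 94.1% to 94.4% for SETDB1.

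The tested genes around each locus were then read. Every count of neighbours below stands beside the shares of all tested genes, 21.6% called higher and 28.4% called lower. SUV39H2 had 10 of 10 nearest tested genes called lower, 5 on each side (28.4% of all tested genes were called lower), with log2 changes of −0.94 to −0.22 and a median of −0.49. Over its 20 Mb bin, the 71 other tested genes lay at a median of −0.32. With bin medians subtracted, SUV39H2 was at −0.070 and no longer past the threshold (limma adjusted p = 0.406). DCLRE1C, a DNA repair nuclease gene, overlaps SUV39H2 on the other strand and fell by 0.22; as the strand setting is not given in the sources used here, reads of these genes cannot be told apart where they overlap.

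CBX3 lay in a segment that was higher. Of its 10 nearest tested genes 6 were higher and 2 lower (21.6% and 28.4% of all tested genes), with a median of 0.39. The median of the other 59 genes of its bin was 0.19. After subtraction of bin medians its change was 0.016 (limma adjusted p = 0.846). HNRNPA2B1, an RNA-binding protein gene that starts 668 bp from CBX3 on the other strand, rose as well. It measured 351 and 388 FPKM in the libraries labelled KO, against 278 and 265 FPKM in WT (log2 change 0.44, SE 0.063, adjusted p = 0.000849), and was at 0.25 with bin medians subtracted.

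For SUV39H1 and TRIM28 the surroundings did not move alike. Of the 10 neighbours of SUV39H1, 3 were higher and 2 lower, the bin median was 0.084, and with bin medians subtracted the gene was at −0.33 (limma adjusted p = 0.00327). TRIM28, near the end of chromosome 19, had 9 tested neighbours of which 1 was higher and 2 were lower, with a bin median of −0.086, and it was at −0.18 after subtraction (adjusted p = 0.0284). KMT5C, also on chromosome 19, had 7 of 10 neighbours lower and a neighbour median of −0.29.

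CBX5 and EHMT1 had neighbours that mostly fell and were not called themselves. Of the 10 neighbours of CBX5, 8 fell and 1 rose (median −0.32), among them HNRNPA1, another RNA-binding protein gene, which starts 604 bp from CBX5 on the other strand. HNRNPA1 measured 306 and 305 FPKM in the libraries labelled KO, against 337 and 356 FPKM in WT (log2 change −0.18, limma adjusted p = 0.0233), though its many pseudogenes can share reads and the call was lost in 5 alternatives. With bin medians subtracted, CBX5 was at 0.21 and passed the threshold (adjusted p = 0.0241). EHMT1, the last tested gene of its chromosome, had 5 neighbours, all lower. The nearest, the noncoding ARRDC1-AS1, starts 106 bp away on the other strand and had 5.91 and 5.40 FPKM in the libraries labelled KO, against 7.81 and 8.92 FPKM in WT.

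EHMT2 lies in the MHC region, where 5 of 10 neighbours rose and 0 fell. The 5 were SNHG32, SNORD48, SNORD52, C2 and CFB. SNHG32 and the small nucleolar RNA genes SNORD48 and SNORD52 are adjacent in the order, so the 5 are not all separate loci. The complement gene C2 starts 85 bp from EHMT2 on the other strand. C2 measured 2.53 and 2.66 FPKM in the libraries labelled KO, against 1.10 and 1.11 FPKM in WT, a rise of 0.78 on the log2 scale (limma adjusted p = 6.42e-05), beside an EHMT2 transcript at −0.0072. SETDB1 had 3 neighbours higher and 1 lower, and KMT5B 0 higher and 2 lower.

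**Figure D3:**
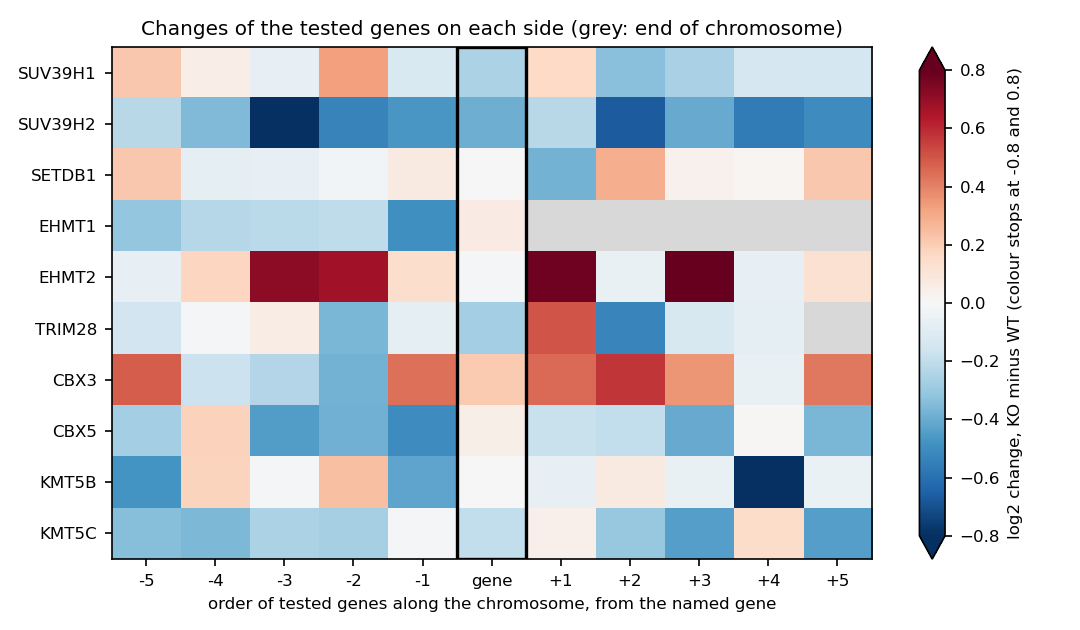
Log2 change (colour, KO minus WT, red higher and blue lower in the libraries labelled KO) of each of the 10 genes, in the boxed middle column, and of up to 5 tested genes on each side in their order along the chromosome; the colour scale is capped at the values on its label, and grey marks the end of a chromosome. The row of SUV39H2 is blue throughout, from −0.94 to −0.22 in its neighbours, whereas the row of CBX5 is blue on both sides of a gene at 0.044.

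**Figure D4:**
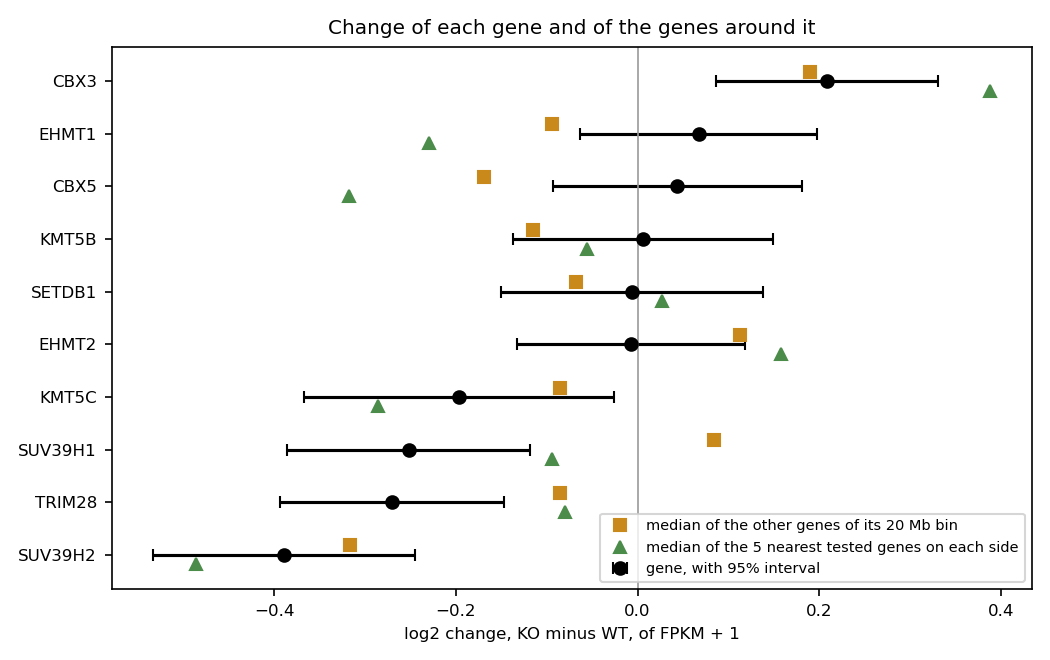
Log2 change of each gene, KO minus WT (horizontal axis; black points with 95% intervals from limma, 2 libraries per group), with the median change of the other genes of its 20 Mb bin (squares) and of up to 5 tested genes on each side (triangles). For SUV39H2 and CBX3 the squares, at −0.32 and 0.19, lie inside the gene's interval, and for SUV39H1 and TRIM28 the squares, at 0.084 and −0.086, lie outside it.

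The libraries also differed with gene length. Tested genes were put in 5 classes of length. The difference of WT replicate 2 from WT replicate 1 had a median of 0.093 in class 1, the shortest, and −0.074 in class 5. That of the libraries labelled KO from WT was −0.12 in class 1 and 0.034 in class 5. SUV39H1 and CBX3 stood in class 2, SUV39H2, TRIM28, SETDB1 and KMT5C in class 3, EHMT2 in class 4, and CBX5, EHMT1 and KMT5B in class 5. With trends for length and GC content removed, the 4 called genes kept their calls: SUV39H1 was at −0.19, SUV39H2 at −0.40, TRIM28 at −0.18 and CBX3 at 0.21.

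Genes that work with the described enzymes were read from 6 lists. Of 14 tested partners of the writers, 3 rose and 3 fell, with a median of 0.028, or 42.9% called against 49.9% of all tested genes. Without KO replicate 2, 1 rose and 0 fell, where 30.1% of all tested genes were called. CDYL2, a chromodomain protein, rose to 2.04 ± 0.0700 FPKM in the libraries labelled KO, against 1.21 ± 0.143 FPKM in WT (mean ± SD, n = 2 libraries each, as below). MPHOSPH8, the chromodomain subunit of the HUSH silencing complex, was 12.0 ± 0.215 FPKM in the libraries labelled KO and 9.90 ± 0.810 FPKM in WT (log2 change 0.26). The SUMO ligase gene PIAS1 also rose (0.25), in a bin with a median of 0.25, and was at −0.0024 with bin medians subtracted; its call was also lost without either library labelled KO. MPHOSPH8 lost its call without either library labelled KO, with no filter and with bin medians subtracted (0.084). WIZ, a zinc finger partner of EHMT1 and EHMT2, fell to 6.88 ± 0.325 FPKM in the libraries labelled KO, against 8.66 ± 0.916 FPKM in WT (log2 change −0.29). It lost its call with bin medians subtracted (−0.12, limma adjusted p = 0.238), without KO replicate 2 (adjusted p = 0.101) and with no filter on low values (adjusted p = 0.0853). PPHLN1, another HUSH subunit, fell by 0.19, with a call lost in 9 alternatives.

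ATF7IP2, a paralog of the SETDB1 cofactor ATF7IP, was too low for the test but was detected in 1 group only. It had 0 fragments in both libraries labelled KO, against 125 and 68 fragments in WT replicates 1 and 2. Taken against a floor of 3 fragments over the libraries labelled KO together and scaled to assigned fragments, it was at least 95.9-fold lower there; the bound covers counting error only. The WT levels were low, at 0.466 and 0.508 FPKM. ATF7IP itself measured 16.8 and 17.2 FPKM in the libraries labelled KO, against 16.5 and 15.1 FPKM in WT, and was not called (limma adjusted p = 0.192).

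Of 9 tested genes listed as other H3K9 and H4K20 methyltransferases, 1 rose and 2 fell, or 33.3% called against 49.9% of all tested genes. Without WT replicate 1, 5 rose and 2 fell, where 60.4% of all tested genes were called. KMT5A, which places the single methyl group on H4K20 that KMT5B and KMT5C extend, was at 22.4 ± 1.11 FPKM in the libraries labelled KO and 24.3 ± 0.254 FPKM in WT (limma adjusted p = 0.131). The genes that moved are better known for other marks. NSD2 and NSD3 are known mainly as H3K36 methyltransferases, and SMYD3 for H3K4 and cytoplasmic substrates. NSD2 fell to 25.4 ± 0.532 FPKM in the libraries labelled KO, against 34.0 ± 0.673 FPKM in WT (log2 change −0.40), in a bin with a median of −0.40. SMYD3 fell by 0.32, or by 0.20 with bin medians subtracted. NSD3 rose by 0.27 and lost its call without KO replicate 2 (0.22, limma adjusted p = 0.136) and with no filter on low values (adjusted p = 0.0971).

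Among 21 tested genes of the HP1 family and of HP1-bound proteins, 5 rose and 3 fell (median 0.024), or 38.1% called against 49.9% of all tested genes. Without KO replicate 2, 3 rose and 0 fell, where 30.1% of all tested genes were called. ATRX, a chromatin remodeler of heterochromatin, was 15.4 ± 0.424 FPKM in the libraries labelled KO and 11.5 ± 1.53 FPKM in WT (log2 change 0.40). AHDC1 and the zinc finger gene ZNF462 rose by 0.33 and 0.31. AHDC1 was at 0.084 and not called with bin medians subtracted (limma adjusted p = 0.323), and ZNF462 lost its call without KO replicate 2 (adjusted p = 0.0617), as ATRX did with no filter on low values (adjusted p = 0.0573). SGO1, the guardian of centromeric cohesion, fell by 0.29, RRP8, a nucleolar protein that binds methylated H3K9, by 0.21, and ADNP, a partner of CHD4 and HP1, by 0.19. SGO1 was at −0.13 with bin medians subtracted (limma adjusted p = 0.111) and lost its call without KO replicate 2 (adjusted p = 0.0602). RRP8 lost its call without KO replicate 1 (adjusted p = 0.134), without KO replicate 2 (adjusted p = 0.147) and once bin medians were subtracted (adjusted p = 0.0594). ADNP lay in a bin with a median of −0.21 and was at 0.019 with bin medians subtracted. Its call was also lost without either library labelled KO, under median-of-ratios scaling and with no filter.

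Genes listed as readers and erasers of the marks were called more often upward than downward. Of 16 tested genes listed as readers, 9 rose and 0 fell (median 0.17, where 21.6% of all tested genes rose). MSH6 was among those that rose (log2 change 0.16). Which mark each listed gene reads was not tested here, so the count is of the list and not of shown readers of H3K9 or H4K20 methylation. TP53BP1, which binds dimethylated H4K20 at DNA breaks, had 10.8 and 11.6 FPKM in the libraries labelled KO, against 6.80 and 6.08 FPKM in WT. Its log2 change was 0.72 (SE 0.069, limma adjusted p = 0.000141), where the other genes of its bin on chromosome 15 had a median of 0.36, and it was at 0.35 with bin medians subtracted (adjusted p = 0.00563). L3MBTL3, a malignant-brain-tumor-repeat protein, rose by 0.32 and CDYL2 by 0.46, and L3MBTL3 lost its call without KO replicate 2 (limma adjusted p = 0.0644). The count of readers that rose was 2 without KO replicate 2, where 13.3% of all tested genes rose, and 3 with no filter on low values, where 8.68% did, with 0 that fell in either.

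Of 10 tested genes listed as H3K9 and H4K20 demethylases, 4 rose and 0 fell (median 0.16), or 40% called against 49.9% of all tested genes. Under the alternatives 3 to 7 rose, the fewest without KO replicate 2, and 0 or 1 fell. PHF8, an eraser of H4K20 monomethylation and H3K9 dimethylation, had 9.47 and 10.3 FPKM in the libraries labelled KO, against 6.06 and 5.21 FPKM in WT. The log2 change of PHF8 was 0.71 (SE 0.077, limma adjusted p = 0.000251), in a bin with a median of 0.067. KDM4A, an eraser of H3K9 trimethylation, was 11.9 ± 0.147 FPKM in the libraries labelled KO and 8.27 ± 0.213 FPKM in WT (0.47). JMJD1C rose by 0.54, beside a bin median of 0.35, and was at 0.19 and not called with bin medians subtracted (limma adjusted p = 0.0686). KDM4A was at 0.24 in that fit and kept its call. RIOX2 itself is on this list, as is RIOX1 (log2 change −0.14), and neither was called. Demethylase activity was not measured for any listed gene.

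Genes listed as derived from retroviral envelopes and capsids were mostly below the filter. Of the 12 listed genes with values, 2 were tested, 0 rose and 1 fell. Whether TRIM28 and SETDB1 silence these genes was not tested, so the list is not a readout of their targets. PEG10 fell to 22.4 ± 0.537 FPKM in the libraries labelled KO, against 34.1 ± 2.67 FPKM in WT (log2 change −0.58). The 10 others were too low for the test, and 3 of them averaged over 0.1 FPKM in both groups. ERV3-1 had 0.717 and 0.872 FPKM in the libraries labelled KO, against 0.488 and 0.512 FPKM in WT. ERVMER34-1 had 0.198 and 0.210 FPKM in the libraries labelled KO, against 0.379 and 0.536 FPKM in WT, and ARC had 0.215 and 0.169 FPKM in the libraries labelled KO, against 0.563 and 0.587 FPKM in WT. Of these 3 untested genes, ERV3-1 was thus higher and both others were lower in the libraries labelled KO, without overlap. Among all tested genes, which lie above the filter, 77.5% had no overlap. The share for genes below the filter was not computed. Retroelements outside annotated genes were not analysed here. Over all 6 lists, with each gene counted once, 20 of 69 tested genes rose and 9 fell, or 42.0% called against 49.9% of all tested genes.

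**Figure D5:**
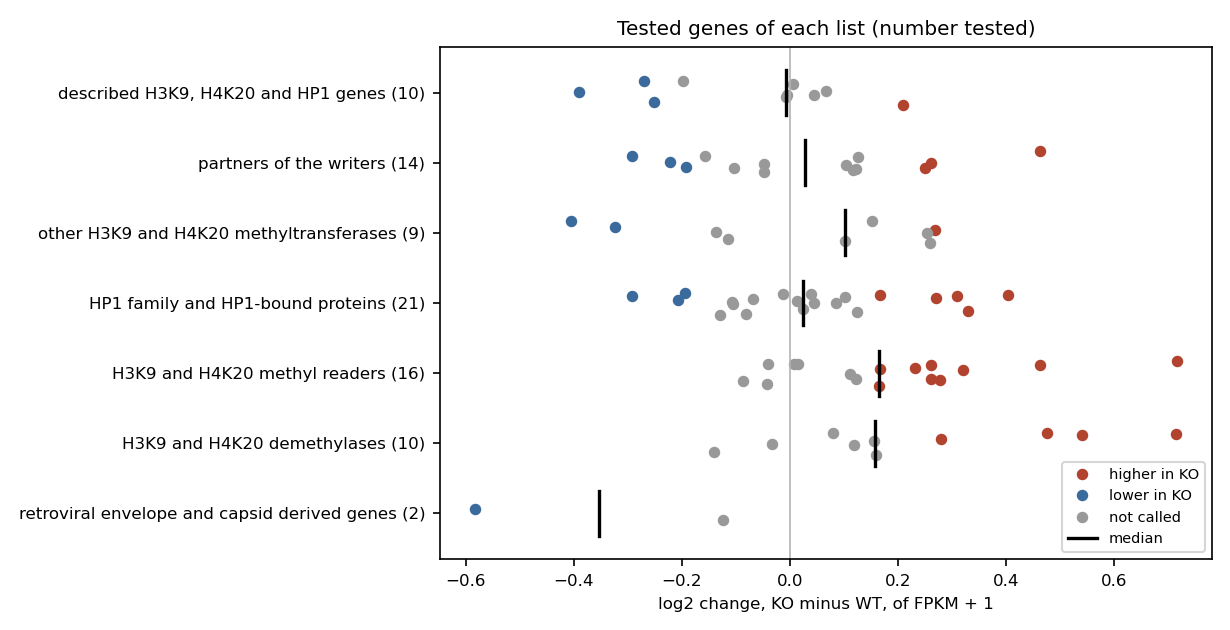
Log2 change, KO minus WT (horizontal axis), of every tested gene of each list, with the number tested in brackets; points are genes, red where called higher and blue where called lower in the libraries labelled KO, grey where not called, and black bars are medians. The lists of readers and of demethylases hold 9 and 4 red points and 0 blue points, with medians at 0.17 and 0.16, while the 10 described genes have 1 red and 3 blue points around a median of −0.0067.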

How the data were processed

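Per the labels' protocols, a company sequenced RNA of MDA-MB-231 cells on an Illumina instrument; the 4 libraries were grouped by their titles. The authors deposited 1 table of FPKM values for 39259 genes by Entrez ID, with exon coordinates and lengths, per the file headers. The submitters' processing notes list STAR, Subread and DESeq2, without versions or roles. For build, annotation and strandedness the sources used here give nothing. In each library FPKM values weighted by kilobases added up to 1000000, and division by the smallest value above 0 gave whole fragments for 100% of values (tolerance 0.001), from which depths were computed. Symbols came from RefSeq on GRCh38.p14 (37708 genes matched, 96.0%); 98.4% of 37675 matched genes lay within 1000 bp of their place in that assembly. No column of the table belonged to other samples.

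The test was limma (version 3.58.1, R 4.3.3, trended and robust) on log2(FPKM + 1), restricted to a mean FPKM of 1 or more, with Benjamini-Hochberg adjustment over all 11716 genes and a threshold of 0.05. Fold changes on this scale understate those of low genes. Intervals of log2 changes are 95% intervals of that fit. Floors and bounds from fragments cover counting error only. The 10 genes and all lists were chosen with earlier results of these data known. Beside them, the text names RIOX2, CBX1, genes on the other strand that start within 1 kb, and up to 3 rises and 3 falls per list among genes past the threshold whose groups did not overlap (1 gene that the rule names is not reported here); ATF7IP2, ATF7IP, KMT5A, ERV3-1, ERVMER34-1, ARC and DCLRE1C, and the motifs, were chosen after values were seen. Replicates were not the same library deposited again (the chi-square of fragments per degree of freedom was 7.37 within the KO pair, 10.5 within the WT pair and 70.3 to 98.1 across groups). Alternatives were another pseudocount, other filters, other scalings, limma without trend or robust, voom on the computed fragments, subtraction of 20 Mb bin medians, blocking on replicate number and leaving out each library; removal of length and GC trends (splines with 5 degrees of freedom, GC content known for 97.0% of genes) and a crossed block were added after the data were seen. The steps were tested on simulated fragments with no trend of length or region. The pass rule asked for calls only of changes larger than those of the 10 genes, so it does not vouch for their calls.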

Additional observations from a re-analysis of the deposited data

How the results depend on the processing

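Of the 10 genes, KMT5C had the fewest fragments (351 in WT replicate 2) and the largest SE (0.074, against 0.053 to 0.063 for the others). SUV39H2 and CBX3 lost their calls with 20 Mb bin medians subtracted (−0.070 and 0.016), where CBX5 gained one (0.21); KMT5C gained one with voom (−0.23). Without 1 library in turn, the number of described genes called ranged from 0 to 1 higher and 1 to 4 lower, all genes from 1559 to 3076 higher and 1962 to 4001 lower, and genes of the 6 lists from 8 to 30 higher and 3 to 11 lower. In the same fits SUV39H1 ranged from −0.29 to −0.22, SUV39H2 from −0.44 to −0.33, TRIM28 from −0.31 to −0.23, CBX3 from 0.17 to 0.25, KMT5C from −0.29 to −0.11, SETDB1 from −0.064 to 0.052, EHMT2 from −0.030 to 0.015, CBX5 from −0.0098 to 0.098, KMT5B from −0.043 to 0.055 and CBX1 from −0.019 to 0.046. The fits without a KO library gave the lowest counts, with the spread within groups taken from the WT pair alone and the lone library assumed to vary like it. In the fits without a WT library the spread came likewise from the KO pair alone.

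Uncalled genes changed sign in other settings: SETDB1 to 0.0044 under quantile normalization, 0.034 under median-of-ratios scaling and 0.062 with bin medians subtracted, EHMT2 to 0.024, 0.036 and, with length and GC trends removed, 0.050, and CBX5 and KMT5B to −0.045 and −0.062 with those trends removed. With bin medians subtracted PIAS1 was at −0.0024, NSD2 at 0.00013 and ADNP at 0.019. Genes of the lists counted 11 higher with no filter and 3 lower with bin medians subtracted. Causes of these differences were not tested. At a mean of 5 FPKM, KMT5B and KMT5C were not tested.

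The replicate numbers name no shared culture, and the differences between replicates 1 and 2 correlated at −0.22 across genes between the groups, so the numbers were not taken as pairs. With a replicate block, 2348 genes were higher and 3029 lower, and the same 4 described genes were called, with SUV39H1 at −0.25, SUV39H2 at −0.39, TRIM28 at −0.27 and CBX3 at 0.21. A crossed block gave 2839 higher and 3821 lower, and of the described genes 1 higher and 4 lower.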
